A study of Homo sapiens with 10 samples.

Results

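The HOX cluster genes are the 39 protein-coding genes of the RefSeq GRCh38.p14 table whose symbols are HOXA, HOXB, HOXC or HOXD followed by digits, with 11 in HOXA, 10 in HOXB, 9 in HOXC and 9 in HOXD. ZEB1 sites were assigned to them when the midpoint of a site lay in a gene or within 10 kb of either of its ends. Of the 52981 consensus sites of the series, 11 were assigned in this way: 1 in HOXA, 6 in HOXB, 1 in HOXC and 3 in HOXD. ZEB1, a zinc finger repressor of epithelial genes, had been mapped by CUT&RUN, in which an antibody directs a nuclease to the places a protein occupies and the released DNA is sequenced. The control group was untreated human breast cancer cells that the labels give as cell line MDA_Parental and cell type Er-/Pr-/Her2-, with no time of their own. The other groups are given as cell line MDA_ERI and received 300 nM eribulin, a drug that blocks microtubule growth, for 24, 48 or 72 h. Every comparison with the control thus also compares these cell line labels, and the label cannot be told apart from the exposure. Each of the 4 conditions had 2 ZEB1 libraries, and 2 IgG libraries were not analysed here. No genetic change is given for any group, and no expression was measured, so the labelled cell type could not be checked against markers. The sample descriptions also name Tn5, which belongs to other assays, so the exact protocol is unclear.

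HOX genes encode homeodomain transcription factors that give cells their position along the body axis. They lie in 4 clusters on different chromosomes, and their order within a cluster mirrors the order in which they are switched on along the axis, from the low numbers towards the head to the high numbers towards the tail. Polycomb proteins keep HOX genes silent where they are not used, Trithorax proteins keep them active elsewhere, and HOX proteins bind DNA together with TALE homeodomain cofactors such as PBX and MEIS.

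ZEB1 binds the E-box CAGGTG, which reads CACCTG on the other strand, and the wider E-box family is written CANNTG. Promoter windows of 250 bases before a gene's start were in the RefSeq GRCh38.p14 table for 20 of the 39 HOX genes, with 27 windows in all. Most were of HOXA genes, with several for HOXA3. Among the HOXB genes, whose cluster held 6 of the 11 sites, HOXB1 alone had a window. The shares below thus do not describe the HOX promoters as a whole. CAGGTG on either strand was in 1 of the 27 windows (3.70%), against 17.5% of all 35116 windows in the table. CANNTG, which includes CAGGTG, was in 74.1% of the HOX windows and in 61.8% of all windows. HOXC4 and HOXC5 share a window, and with each sequence counted once the shares were 3.85 and 73.1% of 26 HOX windows and 17.5 and 61.8% of 34788 windows. A pair of windows is printed: HOXD1, because it was the HOX window that overlapped a ZEB1 site, over all 250 bases, and HOXA7, because it was the HOX window with CACCTG. They were chosen after the values had been seen. Capitals mark every CANNTG. The HOXD1 window lies at chr2:176188418-176188667 on the plus strand of GRCh38.p14 and the HOXA7 window at chr7:27156676-27156925 on the minus strand, and both are written 5′ to 3′ towards the gene.
HOXD1: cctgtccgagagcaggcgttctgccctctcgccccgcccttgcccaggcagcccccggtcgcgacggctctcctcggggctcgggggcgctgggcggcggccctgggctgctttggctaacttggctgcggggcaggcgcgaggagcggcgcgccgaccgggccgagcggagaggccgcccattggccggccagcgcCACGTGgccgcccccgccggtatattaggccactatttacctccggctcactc
HOXA7: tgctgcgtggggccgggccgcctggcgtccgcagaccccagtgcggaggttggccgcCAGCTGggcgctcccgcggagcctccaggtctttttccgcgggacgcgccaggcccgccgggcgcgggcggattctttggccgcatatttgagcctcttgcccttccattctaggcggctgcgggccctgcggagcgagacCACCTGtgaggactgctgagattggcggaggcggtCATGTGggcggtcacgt
The HOXD1 window holds a single match, CACGTG, which begins 53 bases before the start. The first match in the HOXA7 window is CAGCTG. The next one, CACCTG, begins 52 bases before the start, and the last one is CATGTG. No site lay within 10 kb of HOXA7, and the nearest was 19135 bp from it. A match is a description of the letters, and a window without one says only that those letters are not in it.

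ZEB1 sites near HOX genes were few, narrow and weak in the control. At least 1 site lay within 10 kb of 19 of the 39 genes, or 48.7% (95% exact binomial interval 32.4 to 65.2%), against 78.4% of all 20037 protein-coding genes. Of the 39 HOX genes, 33 are 10 kb or shorter. Of all protein-coding genes of that length, 63.6% had a site, a share inside the HOX interval. That interval takes the genes as independent, but neighbouring HOX genes share sites, so it is too narrow. The windows around the HOX genes covered 529.5 kb and held 2.08 sites per 100 kb, against 2.51 for all protein-coding genes and 5.45 for the short ones. Summed control signal was 13.3 CPM per 100 kb around HOX genes, 48.8 around all protein-coding genes and 135 around the short ones. CPM here are a site's counts brought to one common total of counts in sites (per 1000000) and scaled by TMM, which sets the typical site to no change. The median control level of the 11 sites was 6.03 CPM, against 10.4 CPM over all sites, and per kb of site it was 28.5 against 46.2 CPM. Their median width was 199 bp, against 229 bp over all sites, but the HOXB3 site was 517 bp and the HOXD1 site 545 bp wide. The HOXB9 site inside the gene, at 332 bp, and the HOXD13 site, at 283 bp, were also wider than that all-site median.

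The clusters differed in how many sites they held. HOXB had a site within 10 kb of 9 of its 10 genes (90.0%, 55.5 to 99.7%) and 4.23 sites per 100 kb. HOXD had a site near 5 of 9 genes (55.6%, 21.2 to 86.3%) and 2.43 sites per 100 kb. HOXA, with 3 of 11 genes (27.3%, 6.02 to 61.0%) and 0.787 sites per 100 kb, and HOXC, with 2 of 9 genes (22.2%, 2.81 to 60.0%) and 0.729 sites per 100 kb, each held a single site. Neighbouring genes share sites, so genes of a cluster are not independent and no test was made between clusters on these shares. The map of the clusters shows that the 6 HOXB sites spread from the HOXB2 side to HOXB9, while the stretch that ends in HOXB13 held none within the window.

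**Figure D1:**
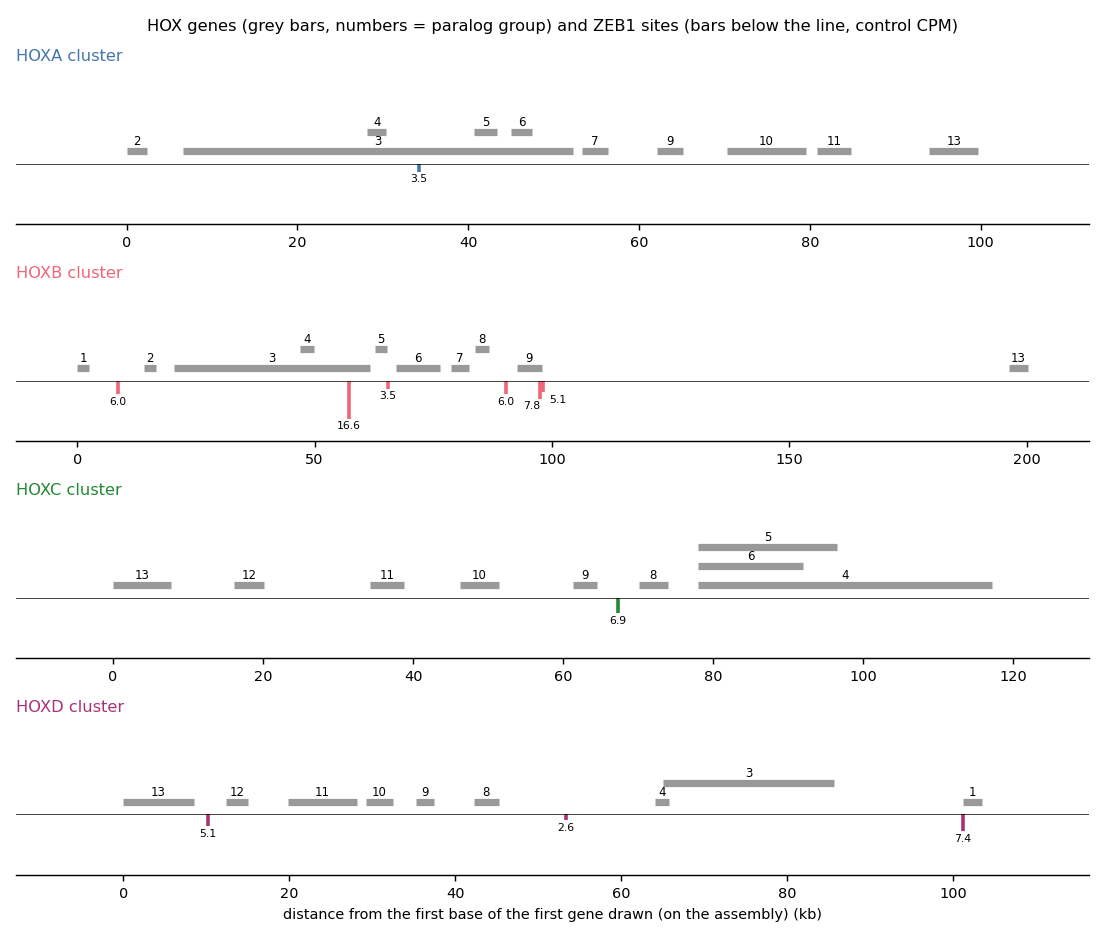
HOX genes (grey bars, numbered by paralog group; 38 of the 39 are drawn) in the 4 clusters, with distance in kb from the first base of the first gene drawn in each cluster on the x axis. Coloured bars under the line are the 11 ZEB1 sites, with length in proportion to the pooled control CPM printed beside them. The highest is the HOXB3 site at 16.6 CPM and the lowest the HOXD8 site at 2.56 CPM.

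Within the clusters, 3 sites had their midpoint inside a HOX gene: HOXA3 at chr7:27134530-27134632, HOXB3 at chr17:48585428-48585944 and HOXB9 at chr17:48625864-48626195. The other 8 lay 7 to 8116 bp from the nearest HOX gene, and 6 of the 11 were within 1 kb of one or inside it. The HOXD1 site, at chr2:176188389-176188933, was 545 bp wide, had its midpoint 7 bp from the gene, and lay in HAGLR, a long non-coding RNA gene of the HOXD cluster. The HOXB5 site, at chr17:48593959-48594084, lay 242 bp from the gene and in HOXB-AS3, another long non-coding RNA gene. A second HOXB9 site, at chr17:48626582-48626761, was 313 bp from the gene and a further one, at chr17:48618681-48618836, was 2397 bp from it. The other sites were near HOXB2 (chr17:48537056-48537201, 5526 bp), HOXC9 (chr12:54006019-54006217, 2781 bp), HOXD13 (chr2:176097516-176097798, 1713 bp) and HOXD8 (chr2:176140710-176140912, 8116 bp). HOX clusters also carry microRNA genes that target HOX transcripts: MIR10A lay 5739 bp from the HOXB3 site, MIR196A1 lay 5818 bp and 6460 bp from the HOXB9 sites nearest to it, and MIR10B lay 9492 bp from the HOXD8 site. Exons and introns could not be told apart with the annotation used here.

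Counts in all sites summed to between 1130706 and 3561455 per library and were lower after eribulin than in the control. The 2 libraries of a condition differed by less than sampling noise (chi-square per degree of freedom 0.830 to 0.951, against 2.06 to 8.55 between conditions), so they were counted as 1 sample and every condition has n = 1. The intervals given are 95% and cover counting error only, and the edgeR p-values compare libraries, not cultures. A flat background level of the peak caller was taken here as a floor. It is a single value per peak list, recovered from the most frequent pairs of fold and p, and not a background local to a site. This floor was at 108, 101 and 95.2% of the control after 24, 48 and 72 h. Per unit of that floor, the counts of all sites came to 49.0, 37.5 and 35.6% of the control. Scaling by the floor moved the median log2 fold change of all tested sites to -0.91, -1.42 and -1.50, against 0.02, -0.01 and 0.00 with TMM. A change under TMM is therefore relative to the other sites, and values on the floor scale are given beside it.

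Of the 11 HOX sites, 6 passed the filter on low counts and were tested: HOXB2, HOXB3, the HOXB9 site inside the gene, HOXC9, HOXD13 and HOXD1. HOXB3, HOXB9 and HOXD1 reached the filter's minimum of 6.29 CPM in all 8 libraries. HOXB2 and HOXD13 reached it in both libraries at 24 h alone and HOXC9 in both at 48 h alone. Each of these had 4 libraries at the minimum, and the filter asks for 2 from any condition. At 24 h, HOXD1 and HOXD13 were called higher and no tested site lower, that is 2 of 6 higher, where 28.1% of all 46436 tested sites were higher and 26.8% lower by edgeR's quasi-likelihood test with Benjamini-Hochberg adjustment at 0.05. At 48 h, HOXD1 and the HOXB9 site rose (2 of 6, background 16.8% higher), and none fell (background 16.9% lower). At 72 h, HOXD1 rose (1 of 6, background 18.9% higher), and none fell (background 17.0% lower). At an unadjusted p under 0.05, edgeR gave 1, 0 and 0 lower sites at 24, 48 and 72 h and 2 higher sites at each time (background 28.9, 21.3 and 21.3% lower and 30.3, 20.8 and 22.7% higher). DESeq2 gave 0 lower sites at each time, adjusted or not, but its share of lower sites among all sites was not computed, so nothing is read from this. After adjustment it gave 0, 0 and 1 higher sites (background 13.7, 8.63 and 9.76% higher). The median log2 fold change of the 6 sites was 0.25, 0.16 and 0.18 with TMM and -0.68, -1.25 and -1.31 on the floor scale, where 3, 4 and 5 of the 6 were lower (background 65.0, 83.5 and 82.9% lower) and none higher (6.07, 3.70 and 2.39% higher). The filter rests on the same libraries that are compared, so these counts and medians support nothing by themselves. Without the filter all 11 HOX sites could be tested, and edgeR then gave 2, 2 and 1 higher (background 25.7, 16.2 and 17.4% of 52981 sites) and 0, 1 and 1 lower (background 25.1, 14.7 and 15.3%) at 24, 48 and 72 h. The medians of the 11 were 0.25, -0.17 and 0.16.

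**Figure D2:**
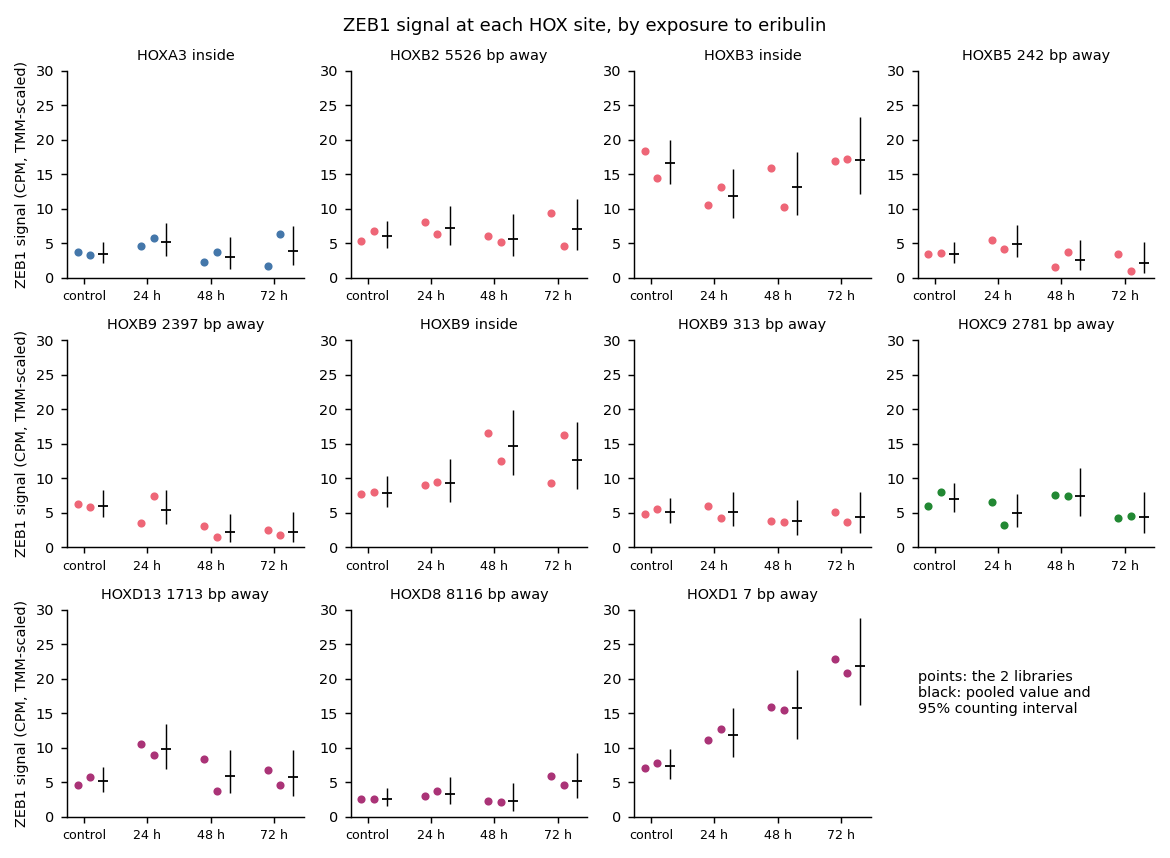
TMM-scaled CPM of each of the 11 HOX sites in the control and after 24, 48 and 72 h of eribulin, with coloured points for the 2 libraries and black marks for the pooled value with its 95% exact counting interval. The HOXD1 site goes from 7.39 to 21.9 CPM, and no other site has a pooled value above 17.1 CPM in any condition. CPM are not divided by the width of a site, and the HOXD1 site is the widest of the 11, at 545 bp.

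HOXD1 encodes an anterior homeodomain protein of the HOXD cluster. Its site had 25 and 24 counts in the control libraries, and after eribulin 22 and 24 (24 h), 21 and 21 (48 h) and 27 and 23 (72 h). The counts were thus nearly level while the totals in all sites fell. In pooled CPM the site went from 7.39 in the control to 11.8, 15.7 and 21.9 after 24, 48 and 72 h. It was the widest of the 11, and per kb of site it had 13.6 CPM in the control, with 5.75% of all sites lower. After eribulin it had 21.7, 28.8 and 40.1 CPM per kb, the last against a median of 46.9 over all sites. The log2 fold change was 0.68 (0.07 to 1.29, edgeR adjusted p = 0.0423) at 24 h, 1.09 (0.46 to 1.71, 0.00244) at 48 h and 1.57 (0.97 to 2.16, 1.66e-06) at 72 h. On the floor scale it was -0.26, -0.34 and 0.06, which is 83.8, 79.1 and 104% of the control, so the direction at 24 and 48 h flipped and none of the 3 changes passed. At 72 h the call also passed with DESeq2 (adjusted p = 0.00296) and with an assumed coefficient of variation of 0.2 between cultures (edgeR adjusted p = 0.0287). With that assumed variation no HOX site was called higher at 24 or 48 h, and the background was 8.25, 5.89 and 6.21% higher at the 3 times. Between 24 h and 72 h of eribulin the site rose by a further 0.88 on the log2 scale (edgeR adjusted p = 0.0111, background 19.4% higher), with 0.31 on the floor scale, and this call was lost without 24 h replicate 1 (edgeR adjusted p = 0.0802) or 72 h replicate 1 (0.101). The 24 h call against the control was lost when either control, either 24 h or either 72 h library was left out (edgeR adjusted p from 0.0503 to 0.228).

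HOXD13, the most posterior gene of the cluster and a regulator of digit formation, had 16 and 18 counts at its site in the control, and after eribulin 21 and 17 (24 h), 11 and 5 (48 h) and 8 and 5 (72 h). Pooled levels were 5.13, 9.78, 5.97 and 5.69 CPM, highest at 24 h. With TMM, the log2 fold change against the 24 h level was -0.71 at 48 h (-1.65 to 0.17) and -0.78 at 72 h (-1.81 to 0.16). On the floor scale it was -1.20 (-2.14 to -0.32) and -1.35 (-2.38 to -0.41). Against the control the 24 h value was 0.93 on the log2 scale (0.23 to 1.64) and -0.0035 on the floor scale. Its 24 h libraries were among the 4 that reached the filter's minimum, so no p of a filtered test is used for this site. Without any filter edgeR gave an adjusted p of 0.0154 for 24 h against the control. Leaving out control replicate 1 or 24 h replicate 1 lost the filtered call. The log2 fold change ranged from 0.72 to 1.06 when each library was left out in turn. HOXD8, a gene of the middle of the cluster, had the weakest control site, at 2.56 CPM, and its 3 to 9 counts per library kept it out of the test.

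HOXB9, a posterior gene of the HOXB cluster, had 3 sites with unlike courses. The site inside the gene had 27 and 25 counts in the control, and after eribulin 18 and 18 (24 h), 22 and 17 (48 h) and 11 and 18 (72 h). Its pooled level was 7.84, 9.27, 14.6 and 12.7 CPM, with the 48 h and 72 h levels above the control. The log2 fold change was 0.89 at 48 h (0.26 to 1.52, edgeR adjusted p = 0.0162) and 0.69 at 72 h (adjusted p = 0.102), against -0.53 and -0.81 on the floor scale. The 48 h call was lost without control replicate 1 (edgeR adjusted p = 0.0629) or without 48 h replicate 1 (0.250). The site 2397 bp away had 22 and 18 counts in the control, and after eribulin 7 and 14 (24 h), 4 and 2 (48 h) and 3 and 2 (72 h). It went from 6.03 CPM to 2.24 at 48 h and 2.19 at 72 h, a log2 fold change of -1.43 (-2.96 to -0.18) and -1.46 (-3.16 to -0.12). The filter kept it out of the test, and without the filter edgeR's adjusted p was 0.0425 at 48 h and 0.0487 at 72 h. On the floor scale this site was at 13.8 and 12.8% of the control, the lowest of the 11. The site 313 bp away stayed between 3.73 and 5.15 CPM, with intervals that held 0 at each time.

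HOXB3, an anterior gene of the cluster, had the strongest control site, with 65 and 45 counts. After eribulin it had 21 and 25 (24 h), 21 and 14 (48 h) and 20 and 19 (72 h). In pooled CPM this was 16.6, 11.8, 13.1 and 17.1, and no change passed with TMM, although the 24 h value of -0.49 did without control replicate 2 (-0.67, edgeR adjusted p = 0.0336). On the floor scale it was at 37.3, 29.4 and 36.2% of the control. HOXB2, which patterns the hindbrain, had 19 and 21 counts in the control, and after eribulin 16 and 12 (24 h), 8 and 7 (48 h) and 11 and 5 (72 h), and its pooled level stayed between 5.60 and 7.21 CPM. HOXB5 had 12 and 11 counts in the control and 1 to 11 per library after eribulin, and its pooled level lay between 2.19 and 4.89 CPM. Neither HOXB2 nor HOXB5 had a change whose interval left out 0 with TMM.

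HOXC9, a posterior gene, carried the single HOXC site, with 21 and 25 counts in the control, and after eribulin 13 and 6 (24 h), 10 and 10 (48 h) and 5 and 5 (72 h). Its pooled level was 6.94, 4.89, 7.47 and 4.38 CPM, with no change that passed with TMM, and 36.9, 40.1 and 22.2% of the control on the floor scale. HOXA3, an anterior gene that acts in the thymus and parathyroid, carried the single HOXA site, with 13 and 10 counts in the control, and after eribulin 9 and 11 (24 h), 3 and 5 (48 h) and 2 and 7 (72 h). Its pooled level was 3.47, 5.15, 2.99 and 3.94 CPM, too few counts to be tested.

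**Figure D3:**
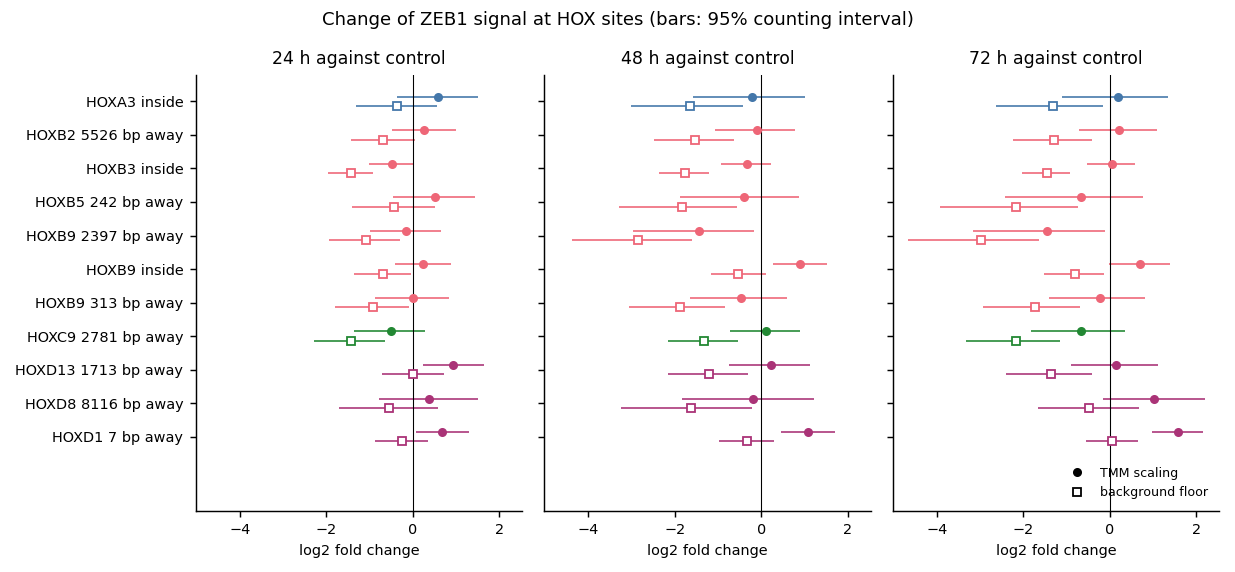
Log2 fold change of the 11 HOX sites at 24, 48 and 72 h against the control, with TMM scaling (filled circles) and with scaling by the background floor (open squares), and bars for the 95% counting interval. With TMM the HOXD1 interval lies above 0 at each time, and on the floor scale it spans 0 at each time.

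The clusters were then compared by the summed counts of their sites. HOXD went from 15.1 CPM in the control to 25.0, 23.9 and 32.8 CPM after 24, 48 and 72 h, a log2 fold change of 0.73 (0.31 to 1.14), 0.66 (0.19 to 1.13) and 1.12 (0.67 to 1.57), and of -0.21, -0.76 and -0.38 on the floor scale. As a share of all counts in HOX sites, HOXD went from 21.4% to 31.7, 31.4 and 37.9%, and HOXB from 63.9% to 55.6, 54.9 and 52.5%. HOXB stood at 45.1, 43.8, 41.8 and 45.5 CPM, with log2 fold changes of -0.04, -0.11 and 0.01 and intervals that held 0. HOXA (3.47 to 5.15, 2.99 and 3.94 CPM) and HOXC (6.94 to 4.89, 7.47 and 4.38 CPM) rest on 1 site each, with intervals that held 0. On the floor scale, where all sites together were at 49.0, 37.5 and 35.6% of the control, HOXD was at 86.6, 59.1 and 76.6%, HOXB at 50.7, 34.6 and 35.5%, HOXA at 77.6, 32.1 and 40.0% and HOXC at 36.9, 40.1 and 22.2%. The floor intervals of HOXD at 24 h (-0.63 to 0.21 in log2) and 72 h (-0.84 to 0.06) and of HOXA at 24 h (-1.31 to 0.56) held 0, and the others lay under it.

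A difference in change between 2 clusters does not depend on the scaling, since a scaling moves all clusters alike. Fisher's exact test on the summed counts, 2-sided and adjusted over the 18 pairs of clusters and times, gave 5 differences. The log2 change of HOXB minus that of HOXD was -0.77 at 24 h (-1.28 to -0.26, exact adjusted p = 0.0143), -0.77 at 48 h (-1.35 to -0.19, 0.0244) and -1.11 at 72 h (-1.67 to -0.54, 0.00148). For HOXC minus HOXD it was -1.23 at 24 h (-2.19 to -0.31, exact adjusted p = 0.0244) and -1.78 at 72 h (-3.02 to -0.66, 0.00668), with -0.56 (-1.52 to 0.38, 0.406) at 48 h. HOXA did not differ from any cluster at the threshold, with intervals such as -0.84 to 2.51 against HOXC at 72 h, which leave room for large differences. These tests treat counts as independent and compare the libraries. Without the HOXD1 site, in an alternative added after the data had been seen, none of the 5 passed. At 24 h the differences kept their size with fewer counts, -0.81 for HOXB minus HOXD and -1.27 for HOXC minus HOXD (exact adjusted p = 0.120 for both), and the HOXD sum changed by 0.77 (0.18 to 1.36). Later they were smaller: HOXB minus HOXD was -0.20 at 48 h (exact adjusted p = 0.939) and -0.49 at 72 h (0.620), and HOXC minus HOXD was -1.16 at 72 h (0.433). Leaving out control replicate 1 (exact adjusted p = 0.148), 24 h replicate 1 (0.0672) or 24 h replicate 2 (0.0635) also lost the 24 h difference between HOXB and HOXD. The 48 h one was lost without control replicate 1 (exact adjusted p = 0.179), 48 h replicate 1 (0.136) or 48 h replicate 2 (0.113). The HOXC difference was lost at 24 h without control replicate 2 (exact adjusted p = 0.154) or 24 h replicate 2 (0.481), and at 72 h without 72 h replicate 1 (0.0922).

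**Figure D4:**
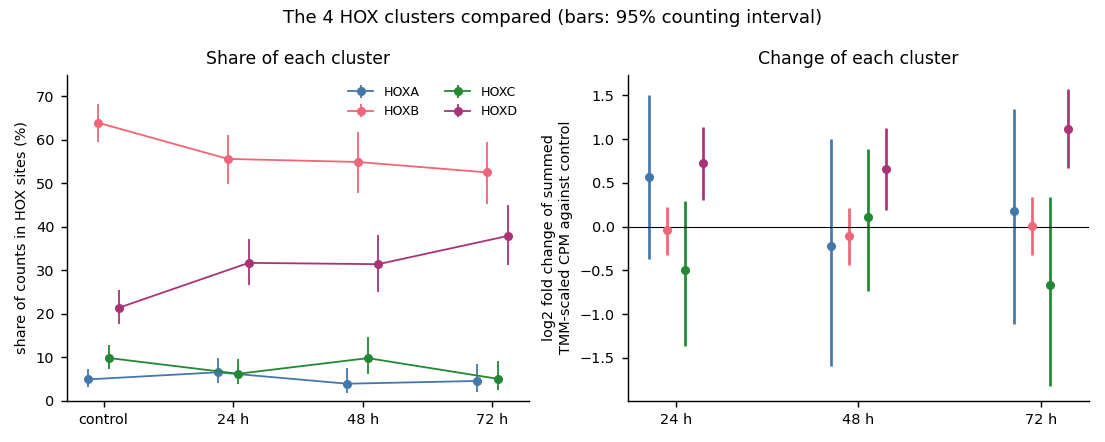
Left, the share of all counts in HOX sites (%) that falls in each cluster, by condition; right, the log2 fold change of each cluster's summed, TMM-scaled CPM against the control. Points are pooled values, bars are 95% counting intervals and lines join the conditions of a cluster. The HOXB share goes from 63.9 to 52.5% and the HOXD share from 21.4 to 37.9%.

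The authors' peak lists, 1 per condition, hold the same sites in another form. All 11 HOX sites carried a control peak, as did 86.6% of all sites (exact interval for the 11, 71.5 to 100%). Of the 11, 3 carried a peak at 24 h (the HOXB9 site inside the gene, HOXD13 and HOXD1), 0 of 11 at 48 h (95% exact upper limit 28.5%) and 1 at 72 h (HOXD1). Of the 45880 sites with a control peak, 60.6, 40.6 and 34.5% also carried one at 24, 48 and 72 h. The control peaks were weak ones in their list: HOXB3 ranked 13259 of 46483 by the caller's p, and the other 10 ranked between 30259 and 44501. The HOXD1 peak, the only one present at 72 h, was the weakest of the 11 by its control rank.

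The genes that work with HOX proteins, from lists drawn up for this purpose, held more sites and stronger ones. Their counts are to be read against the shares of all tested sites, 26.8, 16.9 and 17.0% lower and 28.1, 16.8 and 18.9% higher at 24, 48 and 72 h. TALE cofactors had 41 sites near 9 of 9 genes, of which 36 were tested: 7 fell and 14 rose at 24 h, 2 fell and 6 rose at 48 h, and 7 fell and 4 rose at 72 h. Their site with the smallest p was in PBX4, a PBX partner of HOX proteins, which rose from 9.20 to 54.7 CPM at 72 h (log2 fold change 2.56, edgeR adjusted p = 1.39e-26) and 1.06 on the floor scale. Polycomb genes had 69 tested sites, of which 17 fell and 22 rose at 24 h, 15 fell and 8 rose at 48 h, and 13 fell and 8 rose at 72 h. A site in PHC2, a subunit of a Polycomb complex, fell from 43.0 to 10.3 CPM at 24 h (log2 fold change -2.06, edgeR adjusted p = 3.29e-20). On the floor scale the PHC2 value was -2.99. Trithorax genes and H3K27 demethylases had 42 tested sites, of which 12 fell and 10 rose at 24 h, 7 fell and 5 rose at 48 h, and 5 fell and 9 rose at 72 h. A site 2646 bp from KDM6B, a demethylase that removes the Polycomb mark, rose from 84.6 to 151 CPM at 24 h (0.84, edgeR adjusted p = 3.08e-20), and its value on the floor scale was -0.10. With the assumed coefficient of variation of 0.2, the PBX4 and PHC2 calls were kept (edgeR adjusted p = 2.28e-05 and 5.75e-04) and the KDM6B call was lost (0.174).

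Other homeobox genes had 22 tested sites, of which 3 fell and 6 rose at 24 h, 2 fell and 2 rose at 48 h, and 1 fell and 3 rose at 72 h. Their site with the smallest p lay 1376 bp from SIX5 and fell from 78.9 to 43.5 CPM at 24 h (log2 fold change -0.86, edgeR adjusted p = 2.69e-11). On the floor scale it was -1.79, and the call was lost with the assumed coefficient of variation of 0.2 (edgeR adjusted p = 0.142). The 6 ParaHox genes, the nearest relatives of the HOX genes, had a site near 1 gene, CDX1, which acts in the gut. It fell from 9.05 to 5.15 CPM at 24 h (-0.81, edgeR adjusted p = 0.0421, and -1.74 on the floor scale), a call that DESeq2 did not make (adjusted p = 0.283). It was also lost without control replicate 1 (edgeR adjusted p = 0.0651), control replicate 2 (0.0908), 24 h replicate 1 (0.254) or 24 h replicate 2 (0.0664). The non-coding RNA genes of the HOX clusters had 10 sites, all of them among the 11 HOX sites. Their tested sites, 5 in number, are thus no separate evidence. Site density was 0.605 per 100 kb around ParaHox genes, 2.65 around other homeobox genes and 2.76 around TALE genes. It was 3.33 around Trithorax genes and 4.34 around Polycomb genes, against 2.08 around HOX genes and 2.51 around all protein-coding genes.

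**Figure D5:**
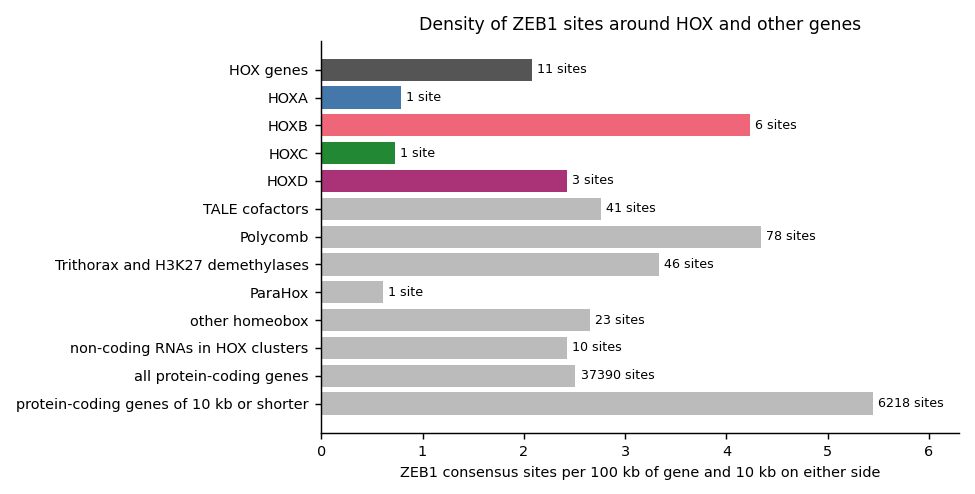
Bars give ZEB1 consensus sites per 100 kb of gene and 10 kb on either side, with the number of sites beside each bar, for the HOX genes, each cluster, the companion lists and all protein-coding genes. HOXB, at 4.23, is the densest cluster, and HOXC, at 0.729, the sparsest.

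The 10 kb window sets which sites are counted. Just inside it were the HOXD8 site at 8116 bp and the HOXB2 site at 5526 bp. Among the sites just outside were a site 22541 bp from HOXB1 (36.2, 19.8, 27.3 and 16.6 CPM in the control and at 24, 48 and 72 h) and a site 25259 bp from HOXB13 (4.98, 4.89, 5.60 and 6.13 CPM). A window of 20 kb gave the same 11 sites.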

How the data were processed

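Deposited counts, whole numbers without normalization, covered 52981 consensus sites in 8 ZEB1 libraries. Reads and fragments cannot be told apart in them. The deposited peak lists, 1 per condition, give each peak a fold enrichment (a ratio) and a -log10 p in the layout of MACS2. Per the submitters' processing notes, which give no role or order, the authors used MACS2 2.1.1, featureCounts, Bowtie2 2.2.6 and the hg38 assembly, as well as cutadapt 2.4, bedtools 2.30.0, deepTools, Picard and bcl2fastq 2.20.0.422. Nothing states that libraries came from separate cultures.

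All 8 libraries were fitted with edgeR 4.0.16 (R 4.3.3: TMM, filterByExpr, robust quasi-likelihood, Benjamini-Hochberg at 0.05), which tested 46436 sites with a common dispersion of 9.77e-05. DESeq2 1.42.0 was an alternative. The script was checked on simulated counts. The background floor was recovered from the fold and p of the peaks, which gave back their p within 5.13e-05 (log10). The labels attach each peak list to both libraries of a condition, while its peak names carry replicate 1. The floor was taken as that of replicate 1 and scaled to replicate 2 by the ratio of site totals, and this assignment was not resolved. Cluster sums were compared with Fisher's exact test on pooled counts. Intervals are exact, at 95%, and cover counting error only. Genes, promoters and distances came from RefSeq GRCh38.p14, which here gave genes without exons. Of 25 non-coding RNA symbols listed, 24 matched.

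The HOX genes and the 6 companion lists were chosen with earlier results of these data known. The rule named, per cluster, the 3 sites of highest mean CPM and the tested site of smallest p at each time, overall the 3 called sites of largest rise and fall at each time, the sites next to the window's limit, and the site of smallest p of each companion list; the other HOX sites are named because all 11 are accounted for. Alternatives were library totals, floor scaling, DESeq2, no filter, an assumed coefficient of variation of 0.2 on summed libraries, a replicate block, each library left out, windows of 5 and 20 kb, sites inside genes, and the strongest 17941 peaks of each list. HOXD without its HOXD1 site was added after the data had been seen. 1 site next to the window's limit is not reported here.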

Additional observations from a re-analysis of the deposited data

Results flagged for a closer look

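The ZEB1 signal at the HOXD1 site changed by different amounts at different times of eribulin. Its log2 fold change was 0.68 at 24 h and 1.57 at 72 h, and the difference, 0.88, passed edgeR's test between 72 h and 24 h (adjusted p = 0.0111, where 19.4% of all tested sites were higher). DESeq2 did not call it (0.87, adjusted p = 0.146), and on the background floor scale it was 0.31 (edgeR adjusted p = 0.374). The counts of the site were 21 to 27 in every library, while the counts in all sites per unit of floor went from 49.0 to 35.6% of the control between these times. The part of that fall in the result was not tested.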

How the results depend on the processing

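Background floor scaling moved most of the HOX results. It gave 3, 4 and 5 lower and 0, 0 and 0 higher sites at 24, 48 and 72 h, with medians of -0.68, -1.25 and -1.31. Cluster sums at 24, 48 and 72 h became -0.37, -1.64 and -1.32 for HOXA and -0.98, -1.53 and -1.49 for HOXB. They became -1.44, -1.32 and -2.17 for HOXC, and -0.21, -0.76 and -0.38 for HOXD. Tested HOX sites that changed direction were HOXB2 at 24 and 72 h (-0.67 and -1.28), HOXB3 at 72 h (-1.46) and HOXB9 at 24, 48 and 72 h (-0.69, -0.53 and -0.81). So did HOXC9 at 48 h (-1.31), HOXD13 at 24, 48 and 72 h (-0.0035, -1.19 and -1.34) and HOXD1 at 24 and 48 h (-0.25 and -0.34). The KDM6B site at 24 h (-0.10) did too, as did sites kept out of the test, such as HOXD8 at 72 h (1.03 to -0.47). The floor was not measured at the HOX sites themselves.

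DESeq2 and the assumed coefficient of variation of 0.2 each left 0 higher sites at 24 and 48 h. Without the filter on low counts, 11 sites were tested, 1 was lower at 48 h and 1 at 72 h, and the 48 h median was -0.17. Sites inside a gene gave 0, 1 and 0 higher sites and a 24 h median of -0.12, since only 2 were tested. With the strongest 17941 peaks of each list, 1 HOX site had a control peak and 0 had one at 24 h. Without the HOXD1 site the HOXD sum changed by 0.09 at 48 h and 0.51 at 72 h, HOXB minus HOXD was -0.81, -0.20 and -0.49, and HOXC minus HOXD was -1.27 at 24 h and -1.16 at 72 h.

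Leaving out each library in turn gave 0 to 2, 1 to 2 and 1 higher sites and 0 to 1 lower sites at each time. The median log2 fold change of the tested HOX sites ranged from 0.06 to 0.29 at 24 h, from -0.19 to 0.32 at 48 h and from -0.29 to 0.31 at 72 h. The filter let in 6 to 11 HOX sites in these fits, so the set of sites changed as well as the libraries. HOXD's sum at 48 h ranged from 0.52 to 0.83, HOXB minus HOXD from -0.88 to -0.64 at 24 h and from -0.89 to -0.65 at 48 h, and HOXC minus HOXD from -1.87 to -0.79 at 24 h and from -1.94 to -1.59 at 72 h. The replicate numbers pair no libraries (correlations of deviations between -0.00462 and 0.0139), and with a replicate block the higher sites stayed at 2, 2 and 1 and the lower at 0. Depth limits these results: 10 of the 11 HOX sites had under 30 counts in every library.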
